A study of Arabidopsis thaliana with 4 samples.

Results

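The glycine-rich protein cluster of Arabidopsis chromosome 2 is a run of 7 genes, AT2G05380 (GRP3S), AT2G05440 (GRP9), AT2G05510, AT2G05520 (GRP-3), AT2G05530, AT2G05540 and AT2G05580, which were 7 of the 34288 loci in the deposited expression table. The genes were selected on their codes, as neighbouring glycine-rich protein genes, at a time when their levels were already known from these data, so their levels and the differences between organs are given as a description with no test. RNA was sequenced from 4 organs of wild-type Col-0 plants grown in long days at 22 °C. Roots and leaves came from plants of 2 weeks on MS plates, and flowers and siliques (the seed pods) from plants of 5 weeks in soil. The sample labels call the second library leaves, whereas the growth protocol names the aerial part, so it may hold more than leaf blades. Each organ was 1 library, so no difference had a replicate check, and organ changes together with age and growth medium in 4 of the 6 pairs of organs.

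Glycine-rich proteins of this kind are small, secreted proteins of the plant cell wall, in which a signal peptide is followed by a long run of glycine repeats broken by a few other residues. In Arabidopsis, GRP-3 is known as a ligand that binds the outer domain of the wall-associated kinase WAK1, a receptor that spans the wall and the plasma membrane. GRP9 is known to bind CAD5, a cinnamyl alcohol dehydrogenase that makes the alcohol precursors of lignin. GRP3S is a short relative of GRP-3, and no role is given here for AT2G05510, AT2G05530, AT2G05540 or AT2G05580.

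The 7 genes all lay on the forward strand and together spanned 89.9 kb. The gaps between neighbours, in order, were 25.04, 21.53, 9.41, 2.59, 2.61 and 21.33 kb. In the table's positions (TAIR10 build), GRP3S lay at chr2:1966816-1968037, GRP9 at chr2:1993082-1994174, AT2G05510 at chr2:2015706-2016749 and GRP-3 at chr2:2026162-2027117. AT2G05530 followed at chr2:2029712-2030544, AT2G05540 at chr2:2033156-2034217 and AT2G05580 at chr2:2055549-2056700. No other locus of the table, and no other gene of the RefSeq annotation, overlapped any of them.

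The reading frame used for each gene had 2 coding exons, a short first one and a longer second one that holds the repeats. The annotation lists 1 coding form for AT2G05540 and AT2G05580 and 2 to 9 for each of the other genes. The form used was the longest of those with the most used start codon, and the members' codon counts and coding identities rest on it. The coding part of exon 1 is shown because it carries the start of the secreted protein and sets the genes into types. It is read from the RefSeq TAIR10.1 genome on the forward strand, 5′ to 3′, with the start codon in capitals.
GRP3S, chr2:1966851-1966923: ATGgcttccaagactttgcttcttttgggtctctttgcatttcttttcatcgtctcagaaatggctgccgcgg
GRP9, chr2:1993134-1993215: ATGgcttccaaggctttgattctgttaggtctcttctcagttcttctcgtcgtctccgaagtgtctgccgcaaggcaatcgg
AT2G05510, chr2:2015807-2015888: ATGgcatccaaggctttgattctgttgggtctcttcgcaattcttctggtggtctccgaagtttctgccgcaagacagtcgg
GRP-3, chr2:2026217-2026295: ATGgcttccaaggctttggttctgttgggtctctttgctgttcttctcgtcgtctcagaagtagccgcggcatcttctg
AT2G05530, chr2:2029755-2029830: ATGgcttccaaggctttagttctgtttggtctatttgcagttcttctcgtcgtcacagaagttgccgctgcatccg
AT2G05540, chr2:2033265-2033373: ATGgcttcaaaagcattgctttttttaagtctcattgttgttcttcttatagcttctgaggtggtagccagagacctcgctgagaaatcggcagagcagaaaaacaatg
AT2G05580, chr2:2055578-2055674: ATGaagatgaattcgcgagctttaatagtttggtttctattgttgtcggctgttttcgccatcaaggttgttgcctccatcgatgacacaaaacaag
The stretch was 73 to 109 bases long and held at most 1 glycine codon in each gene. GRP9 and AT2G05510 were 89.0% identical over it, and GRP-3 and AT2G05530 were 86.1% identical. AT2G05540 and AT2G05580 stood apart, with 45.9% to 52.3% and 42% to 51.5% identity to the others.

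The repeats lie in exon 2. For the 5 genes above 100 FPKM in an organ (FPKM counts fragments for each kilobase of a transcript, relative to all fragments mapped in the library), the 50 codons richest in glycine are shown, read in frame, with the glycine codons (GGN) in capitals.
GRP3S, chr2:1967590-1967739: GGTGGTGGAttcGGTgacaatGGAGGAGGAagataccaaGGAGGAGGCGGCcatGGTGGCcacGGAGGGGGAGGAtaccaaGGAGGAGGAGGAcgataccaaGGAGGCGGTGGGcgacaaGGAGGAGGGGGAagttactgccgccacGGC
GRP9, chr2:1993738-1993887: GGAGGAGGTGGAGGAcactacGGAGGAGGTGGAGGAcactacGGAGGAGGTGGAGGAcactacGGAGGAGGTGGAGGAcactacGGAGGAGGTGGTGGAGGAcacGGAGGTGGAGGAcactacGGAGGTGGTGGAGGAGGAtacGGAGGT
AT2G05510, chr2:2016285-2016434: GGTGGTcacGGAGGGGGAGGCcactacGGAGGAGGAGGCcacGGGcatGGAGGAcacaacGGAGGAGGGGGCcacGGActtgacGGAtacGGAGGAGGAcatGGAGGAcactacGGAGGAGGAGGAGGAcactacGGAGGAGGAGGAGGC
GRP-3, chr2:2026604-2026753: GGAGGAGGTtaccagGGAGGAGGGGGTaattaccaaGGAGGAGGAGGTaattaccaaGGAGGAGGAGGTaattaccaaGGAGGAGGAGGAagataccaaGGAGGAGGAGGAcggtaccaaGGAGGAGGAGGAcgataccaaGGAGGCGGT
AT2G05540, chr2:2033712-2033861: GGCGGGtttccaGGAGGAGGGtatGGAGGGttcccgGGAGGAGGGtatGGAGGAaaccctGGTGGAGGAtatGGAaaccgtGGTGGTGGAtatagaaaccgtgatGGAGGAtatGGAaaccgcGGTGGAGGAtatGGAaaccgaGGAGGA
GGN codons made up 30.8% of the 117 codons of GRP3S, 49.0% of 155 in GRP9, 41.4% of 128 in AT2G05510, 32.2% of 146 in GRP-3, 30.2% of 116 in AT2G05530, 25.7% of 136 in AT2G05540 and 55.1% of 303 in AT2G05580. The median over 27444 nuclear protein-coding genes, each by its longest coding sequence, was 6.11%. By the same rule 76 genes in all reached the share of AT2G05540, the lowest member. What parts the glycine codons differed. The window of GRP9 held 6 tyrosine and 6 histidine codons and no glutamine codon, and that of AT2G05510 held 4, 9 and 0. GRP-3 had 7 tyrosine, 7 glutamine and no histidine codons, and GRP3S had 4, 4 and 3. AT2G05540 had 6 tyrosine and 5 asparagine codons and no glutamine or histidine codon. Asparagine codons numbered 3 in the window of GRP-3, 1 each in those of GRP3S and AT2G05510 and 0 in that of GRP9. The window of AT2G05530, not shown, held 7.

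The cluster held leaf-high and root-high genes side by side. GRP3S, GRP-3 and AT2G05540 were highest in leaves, and GRP9, AT2G05510, AT2G05530 and AT2G05580 were highest in roots. The 3 leaf-high genes were not next to each other, since GRP9 and AT2G05510 lay between GRP3S and GRP-3, and AT2G05530 lay between GRP-3 and AT2G05540. AT2G05530 and AT2G05580 were low, at 1.52 and 1.89 FPKM in roots, and their ratios of roots to leaves were under 4-fold. With these low genes set aside, GRP-3 and AT2G05540 were neighbours. None of the 7 was highest in flowers or siliques.

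**Figure D1:**
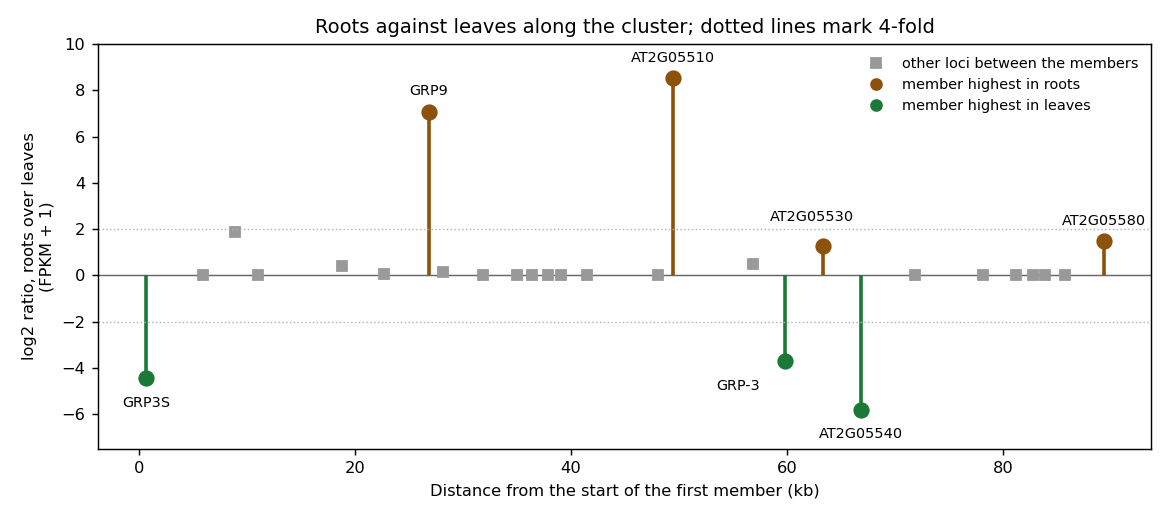
Position of the 7 genes and the named loci between them along the cluster (x axis, distance from the start of GRP3S) against the log2 ratio of roots to leaves on FPKM plus 1 (y axis). The leaf-high genes GRP3S, GRP-3 and AT2G05540 lie below 0, and root-high genes lie above 0 between and after them. Of the root-high genes, AT2G05530 and AT2G05580 are low in every organ and stay inside the dotted lines that mark 4-fold. The named loci between the members (squares) stay inside those lines too.

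GRP3S, the first gene of the cluster, was measured at 97.6 FPKM in roots and reached 2146 in leaves, with 21.9 in flowers and 1.32 in siliques. Leaves stood 22.0-fold above roots, the second organ, and siliques were the lowest. It ranked 20th of 23477 compared loci in leaves and held 94.7% of its summed level there. In bulk organs, a change in the share of cells that make an RNA and a change in the RNA per cell cannot be told apart. The authors' interval ran from 0 to 5122 FPKM in leaves and from 18.7 to 176 in roots, and the leaf interval therefore covered the values of all 3 other organs.

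GRP-3, the WAK1 ligand, was at 903 FPKM in leaves, 67.3 in roots, 41.2 in siliques and 38.9 in flowers. It was the only member above 30 FPKM in all 4 organs, and leaves stood 13.4-fold above roots. It was the only member whose interval began above 0 in every organ: 489 to 1316 FPKM in leaves, 30.7 to 104 in roots, 10.4 to 71.9 in siliques and 9.01 to 68.8 in flowers. The leaf interval did not overlap any of the other 3, which overlapped one another. The order of roots, siliques and flowers is therefore not resolved by these intervals.

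AT2G05540 reached 313 FPKM in leaves, while flowers had 10.6, siliques 10.3 and roots 4.61. It was the leaf-high gene with the lowest root value, and its second organ was flowers, 29.6-fold below leaves. Flowers and siliques were 0.04 apart on the log2 scale, and every interval of the gene reached down to 0, with an upper end of 668 FPKM in leaves. The log2 ratios of roots to leaves, on FPKM plus 1, were -4.45 for GRP3S, -3.73 for GRP-3 and -5.80 for AT2G05540.

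GRP9, the CAD5 partner, reached 2227 FPKM in roots against 15.5 in leaves, while siliques had 0.288 and flowers 0.00872. It ranked 2nd of the 23477 compared loci in roots, and roots held 99.3% of its summed level, 144-fold above leaves. The flower value corresponded to about 0.881 fragments and the silique value to about 28.9, so the order of these organs rests on few fragments. The root interval ran from 0 to 5327 FPKM.

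AT2G05510 had 922 FPKM in roots, 1.53 in leaves and 0.0203 in siliques, and was listed at 0 in flowers. It ranked 33rd in roots and was the member most confined to its highest organ, with 99.8% of its summed level in roots, 603-fold above leaves. The silique value corresponded to about 1.91 fragments. Its root interval ran from 0 to 2018 FPKM. The log2 ratio of roots to leaves was 7.08 for GRP9 and 8.51 for AT2G05510.

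The remaining members were low in every organ. AT2G05530 had 1.52 FPKM in roots, 0.0430 in leaves, and a listed value of 0 in both flowers and siliques. AT2G05580, whose coding sequence was the longest of the 7 and the richest in glycine codons, had 1.89 FPKM in roots, against 0.0441 in leaves, 0.0160 in flowers and 0.00658 for siliques. The root values corresponded to about 139 and 341 fragments, and the leaf values to about 3.90 and 7.90. Both genes were highest in roots, but with 1 added to each FPKM their log2 ratios of roots to leaves were 1.27 and 1.47, under the 4-fold threshold used below.

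**Figure D2:**
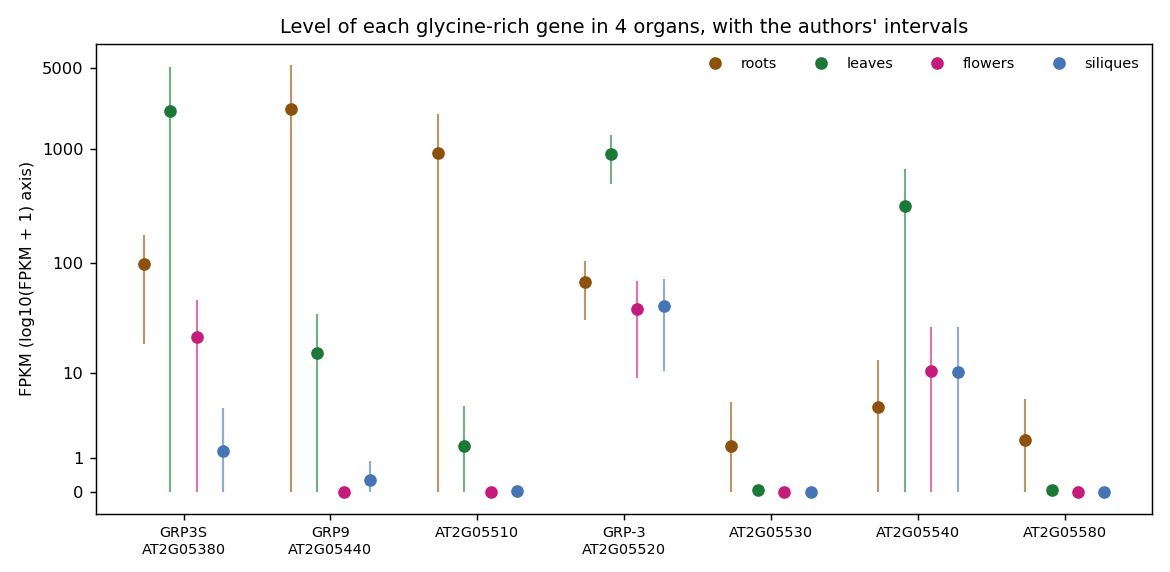
FPKM of the 7 genes in roots, leaves, flowers and siliques (1 library each; log axis of FPKM plus 1), with the authors' intervals as vertical lines. GRP9 and AT2G05510 reach 2227 and 922 in roots, GRP3S, GRP-3 and AT2G05540 reach 2146, 903 and 313 in leaves, and AT2G05530 and AT2G05580 stay below 2 in every organ.

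The members' summed level was 3322 FPKM in roots and 3378 in leaves, against 71.4 in flowers and 53.1 in siliques. As a share of all FPKM, the cluster took 0.503% in roots and 0.523% in leaves, but 0.0107% in flowers and 0.00776% in siliques. The near-equal sums of roots and leaves came from different genes. GRP9 gave 67.0% and AT2G05510 27.8% of the root sum, while GRP3S gave 63.5%, GRP-3 26.7% and AT2G05540 9.25% of the leaf sum. In flowers GRP-3 gave 54.5%, GRP3S 30.7% and AT2G05540 14.8%. In siliques GRP-3 gave 77.6% and AT2G05540 19.4%.

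**Figure D3:**
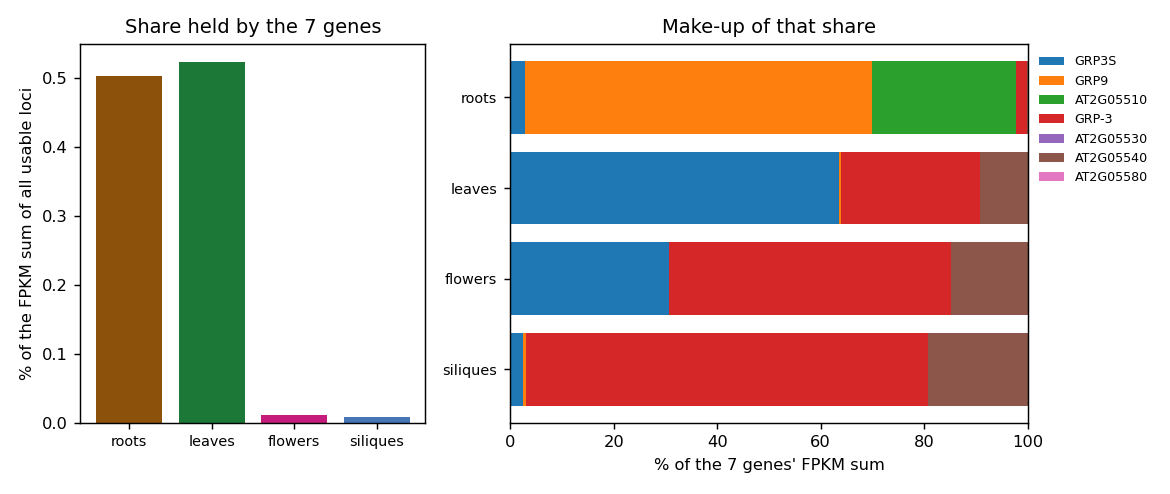
Share of the FPKM of all usable loci held by the cluster in each organ (left, percent) and the part of the cluster's own sum that each gene gives (right, percent). Roots and leaves reach 0.503% and 0.523% through different genes, and flowers and siliques lie at 0.0107% and 0.00776%.

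A locus was counted as different between organs when log2(FPKM + 1) differed by at least 2, which is 4-fold, in the 23477 loci with an FPKM of at least 1 in an organ; the 1 added to each value understates the ratio of low genes. All 7 members were among these loci, AT2G05530 and AT2G05580 through their root values alone. Between roots and leaves 5 of the 7 differed, against 16.5% of all compared loci. GRP9 and AT2G05510 were the 2 higher in roots (9.09% of all loci), and GRP3S, GRP-3 and AT2G05540 the 3 higher in leaves (7.42%). The members' median log2 ratio was 1.27, the value of the low gene AT2G05530, and that of all loci 0.34. With a pseudocount of 0.1 or 5 the members' median was 3.50 or 0.37. Scaling the libraries by median ratios moved the median of all loci to 0.00 and that of the members to 1.15. The share of differing loci that were higher in roots went from 55.1% to 43.7%, and the direction of every member was unchanged. The levels in all 4 organs were known when the genes were grouped, so nothing is read from these counts or from those of the other pairs, which are set beside the shares of all loci as a description.

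Roots against flowers gave 3 of 7, all higher in roots, against 20.4% of all loci, and the members' median was 1.51 against -0.06. That median is the ratio of AT2G05580, a low gene compared through its root value alone. The members' median was 4.02 with a pseudocount of 0.1, the ratio of AT2G05530, and 0.72 with 5, that of GRP-3. The 3 genes that differed were GRP3S, whose log2 ratio was 2.11, GRP9 at 11.11 and AT2G05510. Roots against siliques gave the same 3 genes (19.7% of all loci), with GRP3S at 5.41, GRP9 at 10.76 and AT2G05510 at 9.82, and medians of 1.52, again that of AT2G05580, and 0.14. Leaves against flowers gave 4 of 7 against 10.5%, all higher in leaves, with GRP3S at 6.55, GRP9 at 4.03, GRP-3 at 4.50 and AT2G05540 at 4.76. The medians were 4.03 for the members and -0.38 for all loci, and median-ratio scaling moved the share of differing loci that were higher in leaves from 23.0% to 36.9%. Leaves against siliques gave the same 4 genes against 9.84%, with log2 ratios of 9.86, 3.68, 4.42 and 4.80, and medians of 3.68 and -0.12. GRP9 thus stood above flowers and siliques in leaves too, where its level was 15.5 FPKM.

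Between flowers and siliques 1 of 7 differed, against 8.57% of all compared loci. That gene was GRP3S, at 21.9 FPKM in flowers and 1.32 in siliques, a log2 ratio of 3.31, and its intervals in these organs overlapped (0 to 47.0 and 0 to 4.42). GRP-3 and AT2G05540 differed by -0.08 and 0.04. The members' median was 0.00 and that of all loci 0.19.

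Over the 42 combinations of a member and a pair of organs, 20 differed at least 4-fold, against 14.3% over all compared loci and pairs, and in 4 of these the authors' intervals did not overlap. Over all compared loci and pairs the share that was both 4-fold apart and separate was 1.02%. The 4 were GRP-3 in leaves against each other organ and GRP3S in roots against siliques. The very high values of GRP9, AT2G05510 and GRP3S had intervals that began at 0, as did 23 of the 28 values of the cluster. GRP9 and AT2G05510 in roots corresponded to about 234000 and 91100 fragments, and GRP3S in leaves to about 187000. Why these intervals began at 0 was not tested. The confidence level of these intervals is not given in the sources used here.

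Related sequences were not always expressed alike. GRP9 and AT2G05510, both root-high, were 72.7% identical over the coding sequence, and GRP3S and GRP-3, both leaf-high, 69.8%. The highest coding identity, 74.6%, was that of GRP3S and AT2G05530, which were highest in different organs and stood at 2146 and 0.0430 FPKM in leaves. GRP-3 and AT2G05530, neighbours 2.59 kb apart, were 67.4% identical and also highest in different organs. AT2G05540 was 57.0% identical to GRP-3, yet the profiles of these genes, as the distance between log2(FPKM + 1) centred on each gene's mean, were only 1.64 apart, against 4.18 for GRP-3 and GRP3S and 2.09 for GRP9 and AT2G05510. AT2G05530 and AT2G05580 were 0.16 apart, with both profiles nearly flat on this scale. These are descriptions over 21 pairs of 7 genes, and each gene enters 6 pairs. Near-identical stretches can be shared by reads: the longest run of bases present in both transcripts was 60 for GRP3S and GRP-3 and 37 for GRP9 and AT2G05510, and 11 to 23 for the other pairs. How the authors placed reads that match several genes is not given in the sources used here.

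**Figure D4:**
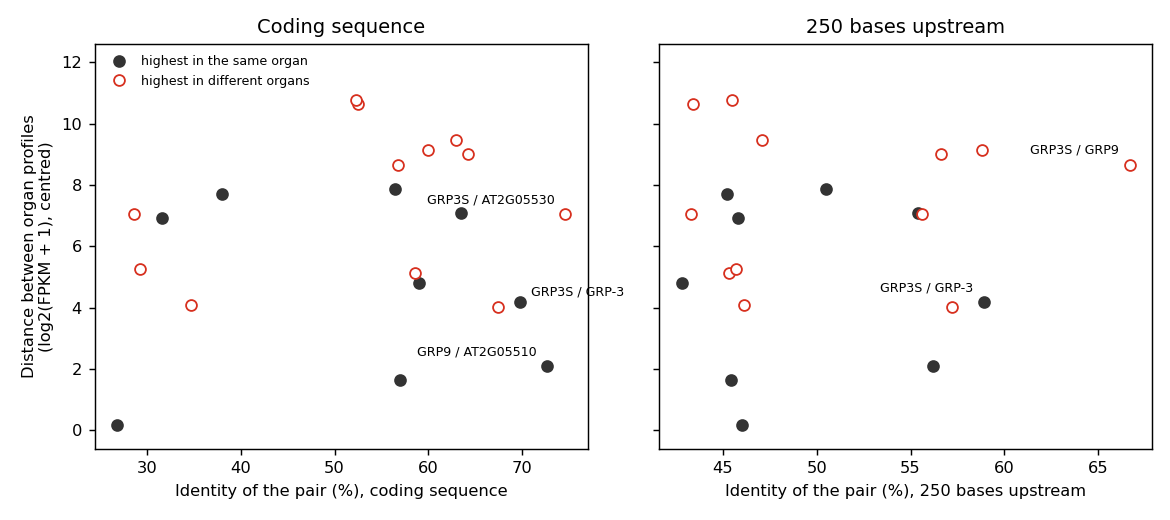
Each point is a pair of the 7 genes: identity of the coding sequence (left) or of the 250 bases upstream (right), in percent, against the distance between their organ profiles. The most alike upstream pair, GRP3S and GRP9 at 66.7%, is highest in different organs (open circles), and filled circles mark pairs highest in the same organ.

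The 250 bases upstream of the transcript start were most alike for GRP3S and GRP9, at 66.7% identity, although the former was leaf-high and the latter root-high. GRP3S and GRP-3 were 58.9% identical there and shared an exact run of 24 bases, ttatttgacttttctcattccctc, which began at -69 in GRP3S and -67 in GRP-3. GRP9 had 16 bases of that run, from -64. Places are counted from the annotated transcript whose ends lay nearest to those of the deposited locus. Other annotated transcripts of GRP3S and GRP-3 begin upstream of the shared run. Pairs with AT2G05540 or AT2G05580 lay at 42.8% to 46.1%.

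Of 5 motifs searched in these windows, GATAAG, the core bound by GATA factors and by MYB-related factors, was found in the most members. On either strand it lay upstream of 6 of 7 members, against 12.4% of the windows of 25267 protein-coding genes. Each occurrence is shown with its flanks, read on the forward strand of TAIR10.1, with the motif in capitals (CTTATC is GATAAG on the reverse strand).
GRP3S, chr2:1966636-1966665: catactttgataCTTATCtccttaccactt
GRP9, chr2:1992902-1992931: aatactctgataCTTATCttcttaattact
AT2G05510, chr2:2015536-2015565: ctagcaacggacGATAAGggtccggacgca
GRP-3, chr2:2026046-2026075: tgttttaattgtGATAAGttccttttctct
GRP-3, chr2:2026077-2026106: tattggattacgGATAAGttatttgacttt
AT2G05530, chr2:2029557-2029586: tatactttggtaCTTATCtccttacctctt
AT2G05540, chr2:2033084-2033113: gacctatttgcaCTTATCcactcgttttgc
Counted from the transcript start, with -1 the last base before it, the motif began at -168 in GRP3S, -170 in GRP9, -158 in AT2G05510, -104 and -73 in GRP-3, -143 in AT2G05530 and -58 in AT2G05540. GRP3S and AT2G05530 shared an exact run of 16 bases there, tacttatctccttacc. GATAAG occurred in both leaf-high and root-high members, and a relation of the motif to the organ of highest expression was not tested. The upstream windows of some members are alike, as in this shared run, so the occurrences cannot be counted as independent. With windows set at the earliest annotated start it lay in 5 of 7 (12.2% of all genes), GRP-3 being the one left out, and with windows of 500 bases in the same 6 of 7 (22.4%). Other annotated transcripts of GRP3S and GRP-3 begin upstream of the sites shown, and at the earliest start GRP3S was counted through a further site that is not shown. These other windows were chosen after the motif had been seen.

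The TATA box motif TATAAA, searched on the forward strand, lay in 3 of 7 windows, against 33.6% of all genes, and is shown in capitals with its flanks because it lay at almost the same place in leaf-high GRP3S and root-high GRP9.
GRP3S, chr2:1966773-1966802: cctcattttcatTATAAAtagagagcatgc
GRP9, chr2:1993042-1993071: tctgttcgtttcTATAAAtagagggcatgc
AT2G05530, chr2:2029652-2029681: ctcttcattctcTATAAAtagtgaatgttt
It began at -31 in GRP3S, -30 in GRP9 and -48 in AT2G05530. The upstream windows of GRP3S and GRP9 were the most alike of all pairs, at 66.7% identity, so these sites cannot be counted as independent. Other annotated transcripts of GRP3S and GRP9 begin upstream of these TATAAA sites, so the places hold only for the transcript starts used here. The same is true of the TTGAC sites of GRP3S and GRP-3 given next. The W-box core TTGAC, bound by WRKY factors, lay on either strand in 4 of 7 windows (45.1% of all genes), at -65 in GRP3S, -63 in GRP9 and GRP-3 and -220 in AT2G05530. The sites of GRP3S, GRP9 and GRP-3 lie in a run of 16 bases that these genes share, so they cannot be counted as independent. The G-box CACGTG (7.07% of all genes) and the evening element AAATATCT (5.01%), each searched on both strands, were in none of the 7 windows. A match gives the letters in the window and says nothing of a factor's binding.

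The named loci between the members were low in all organs. Of the 21 table loci inside the cluster that were not members, 1 had no gene name, and its level was not examined. Among the 20 with one, 14 were annotated as pseudogenes and 1 as a transcribed pseudogene, and 7 of the 20 were listed at 0 in every organ. The highest of the 20 was AT2G05518, a noncoding RNA, with 5.88 FPKM in roots and 3.87 in leaves against 1.18 in flowers and 0.649 in siliques. AT2G05400, a gene related to ubiquitin-specific proteases, was at 2.68 FPKM in roots, 0.141 in flowers and listed at 0 in leaves and siliques. AT2G05410, a MATH-domain gene, reached 1.08 in flowers. These were the 3 of the 20 that could be compared, with a median log2 ratio of 0.50. None differed 4-fold between roots and leaves, against 16.5% of all compared loci.

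Glycine-rich genes elsewhere in the genome were spread over all organs. Of 65 other genes described as glycine-rich proteins, 50 could be compared: 15 were highest in flowers, 13 in roots, 13 in leaves and 9 in siliques. Between roots and leaves 7 of the 50 were higher in roots and 3 in leaves, with a median of 0.01. That was 20.0% in all, against 16.5% of all compared loci. Their largest ratios were 4.61 for both AT1G55990, whose FPKM was 44.5 in roots against 0.863 in leaves, and AT4G33610, at 45.4 and 0.904. The smallest were -6.86 for GRP23, at 809 in siliques, 516 in flowers and 465 in leaves but 3.01 in roots, and -6.82 for AT1G04800, at 0.109 in roots and 124 in leaves. Of these genes 12 exceeded 100 FPKM in an organ, as did 5 of the 7 in the cluster and 9.49% of all compared loci; the members' levels were known when they were grouped. A list of 17 named glycine-rich genes, which shares 11 with the former, had 3 higher in roots and 1 in leaves, with a median of 0.55. That was 23.5% of the list, beside the same 16.5% of all compared loci. DOT1, a glycine-rich gene needed for leaf vein patterning, had 1228 FPKM in roots against 118 in leaves, a ratio of 3.37, with 13.4 in flowers and 10.2 in siliques. GRP4, a glycine-rich RNA-binding protein of another type, had a ratio of 2.20, and GRP19, a pollen-coat protein, was at 815 FPKM in flowers and below 1 elsewhere, with a ratio of -0.48.

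The partner genes had organ patterns of their own. WAK1 was split over 3 loci of the table. The longest of these was highest in flowers at 7.61 FPKM, followed by siliques at 4.003, leaves at 2.53 and roots at 0.0178. The other two were highest in siliques, at 1.83 and 0.226 FPKM, against 0.691 and 0.0664 in flowers, so the organ order of WAK1 differed between its loci. Its ligand GRP-3 was at 67.3 and 903 in roots and leaves. WAK2, a related pectin receptor, was highest in leaves at 18.0, followed by siliques at 3.41, flowers at 0.984 and roots at 0.248, a log2 ratio of roots to leaves of -3.93. WAK3, WAK4 and WAK5 were below 1 FPKM in all organs. KAPP, the kinase-associated phosphatase found with WAK1, ranged from 10.06 FPKM in leaves through 13.96 in flowers and 14.6 in roots to 16.7 in siliques. PSBP-1, a photosystem II subunit known in Arabidopsis as a protein that binds WAK1, was at 25.5 in roots and 3419 in leaves, a ratio of -7.01. CAD5, the GRP9 partner, ranged from 20.4 in leaves through 53.5 in roots and 57.8 in flowers to 92.3 in siliques, a ratio of roots to leaves of 1.35, and its relative CAD4 (ATCAD4 in the reference) had 94.9 in roots and 45.1 in leaves, a ratio of 1.06. Thus CAD5 was highest in siliques, where GRP9 was at 0.288. Of the 9 genes 5 could be compared, and 2 of them differed between roots and leaves, against 16.5% of all compared loci. Both were higher in leaves, and the median of the 5 was 0.49.

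The loci nearest to each member in organ profile were sought among all compared loci over the 4 organs, the 2 nearest being named. For GRP9 these were MLP34, an MLP-like protein, at 1421 FPKM in roots and 13.4 in leaves (distance 0.47), and DR4, annotated as repressed by drought, at 1776 and 26.5 (0.85). For AT2G05510 they were MLP329 at 620 and 2.34 (0.70) and the beta-glucosidase BGLU21 at 591 and 1.06 (0.72). GRP-3 was nearest to the receptor-like protein RLP19, at 33.9 in leaves (0.44), and to AT3G22060, at 47.1 in leaves (0.51). AT2G05540 was nearest to a locus joining AT4G13570 and AT4G13572, at 53.7 in leaves (0.31), and to AT2G30766, at 71.1 (0.46). GRP3S had no close match: RAV2, a transcription factor, was 2.82 away and the methyltransferase gene IGMT4 3.002, both leaf-high with lower root levels and almost none in flowers and siliques. These distances hold for 4 points and carry no test.

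The organ labels were checked with marker genes, 14 of 16 of which were highest in their own organ; the exceptions were the leaf genes RBCS3B and CA1, which were higher in siliques. Root markers summed to 600.4 FPKM in roots and 1.07 in leaves. Leaf markers summed to 13655 FPKM in leaves, 10190 in siliques, 5023 in flowers and 85.5 in roots. In siliques, where the leaf markers were high, GRP3S was at 1.32 FPKM, AT2G05540 at 10.3 and GRP-3 at 41.2. An FPKM of 1 corresponded to about 149.5 to 157.1 fragments per kb of transcript. This was taken from loci whose interval reaches 3 times the FPKM, assumed to hold 1 fragment (615 to 718 loci per organ). The assumption was not checked, and every fragment number given here rests on it. An upper end near 3 times the value was not particular to such loci: AT2G05580 in roots had 1.89 FPKM and an upper end of 5.58, at about 341 fragments. The estimate rests on values already scaled by the authors, so it does not settle how deeply each library was sequenced.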

How the data were processed

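RNA from 1 library per organ was sequenced on an Illumina HiSeq instrument after DNase treatment, per the labels' protocols. Per the submitters' processing notes the authors used TopHat and Cufflinks with the TAIR10 build; no version is recorded in those notes. The deposited values are FPKM with the lower and upper ends of an interval, per the file headers. Of 34288 loci, 34071 had a usable status in every library, and 23477 of these reached an FPKM of 1 in an organ and were compared. Ratios are log2(FPKM + 1), and 4-fold was the threshold for a difference. With 1 library per organ, no p-value was computed.

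The members, the lists of other genes and the motifs were chosen with earlier results of these data known. From the lists of glycine-rich genes, partners and neighbours, the largest and smallest ratios were named, beside genes needed for their level. Sequences were read from the RefSeq TAIR10.1 genome by its own annotation; 98.4% of nuclear loci overlapped the same code there. Coding sequences and 250-base upstream windows were aligned globally with Biopython 1.88. Calculations used Python 3.11.15, numpy 2.4.6 and pandas 2.3.3. The rule for log2 ratios and the median-of-ratios scaling were tested on simulated data, and the other steps were not. Fragments behind an FPKM were estimated from loci whose interval reaches 3 times the FPKM, taken as 1 fragment. The alternatives were other pseudocounts, a 2-fold threshold, median-of-ratios scaling, and other denominators for the shares.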

Additional observations from a re-analysis of the deposited data

How the results depend on the processing

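No paired analysis was possible because each organ has 1 library, and leaving out a library removes an organ. Of the member ratios recomputed under scaling and other pseudocounts, none that passed 4-fold changed sign: all 42 stayed on their side of 4-fold under median-of-ratios scaling, 40 with a pseudocount of 5 and 34 with 0.1. The ratio of AT2G05540 in flowers to siliques, 0.04, turned to -0.20 under the scaling. With a pseudocount of 5, GRP3S in roots against flowers fell to 1.93 and GRP9 in leaves against siliques to 1.95. With a pseudocount of 0.1, 8 ratios of AT2G05510, AT2G05530 and AT2G05580 passed 4-fold, since these genes are near 0 in an organ. The members that differed in roots against flowers rose from 3 to 5 with a pseudocount of 0.1 and to 6 at 2-fold. In roots against siliques they likewise rose to 5 and 6. At 2-fold, 5 of the 6 were higher in roots in each pair, and AT2G05540 was higher in flowers and in siliques, with ratios of -1.04 and -1.01. The shares of all loci that pass under these settings were not computed, so nothing is read from these counts.

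Between roots and leaves, the 17 named glycine-rich genes gave 2 under median-of-ratios scaling and 9 at 2-fold, against 4. The genes found by description gave 19 at 2-fold against 10, and the partners 4 against 2. The named loci between the members gave 1 with a pseudocount of 0.1 and 1 at 2-fold, against 0. The share of all loci at 2-fold or with other pseudocounts was not computed, so nothing is read from these list counts. The cluster's share of FPKM over all loci whatever their status was 0.5% (roots), 0.52% (leaves), 0.0104% (flowers) and 0.00743% (siliques). Without the 10 highest other loci it was 0.519%, 0.553%, 0.0111% and 0.00828%. Levels near 0 rest on few fragments, and the spread between plants is unknown.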
